A study of Rattus norvegicus with 20 samples.

Results

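Cytochromes P450 of the Cyp2b and Cyp2c subfamilies were followed in the livers of male rats given IDDP (isodecyl diphenyl phosphate), a flame-retardant plasticiser of the aryl phosphate class. The genes were Cyp2b21, Cyp2c6v1, Cyp2c7, Cyp2c11, Cyp2c13, Cyp2c22 and Cyp2c23. Their probe sets were those that the array annotation gives to exactly 1 of these symbols, a rule that used no measured value. It found 7 probe sets, 1 per gene, among the 31042 probe sets tested, which stood for 14217 genes with a single symbol.

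The animals were male Harlan Sprague-Dawley rats gavaged once a day for 4 days, and liver was taken on day 5. There were 3 rats at each IDDP dose, 66, 132, 263.6, 527.1 and 1054.2 mg/kg body weight in corn oil (from 0.169 to 2.7 mmol/kg), and 5 vehicle rats given corn oil alone. The left liver lobe of each rat gave 1 Affymetrix array, made from 100 ng of RNA. Levels are log2 intensities per probe set, so a change of 1 is a 2-fold change, and the level of one probe set cannot be set against that of another.

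These enzymes sit in the endoplasmic reticulum, take electrons from cytochrome P450 reductase and hydroxylate or epoxidise drugs, steroids, retinoids and fatty acids. In rat liver, the nuclear receptors CAR and PXR are known to induce Cyp2b1, Cyp2b2 and, more weakly, Cyp2c6. The Cyp2c subfamily is also known for its sex difference in rats: Cyp2c11 and Cyp2c13 are male-specific genes driven by the pulses of growth hormone in males, Cyp2c12 is female-specific and Cyp2c7 is higher in females.

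Median levels were 6.32 to 6.41 log2 per array, and any 2 arrays correlated across probe sets with Pearson's r of 0.978 to 0.996. RNA integrity was read as the 3' level minus the 5' level of the actin and GAPDH controls, which grows with degradation. This 3' minus 5' difference was 1.55 to 1.75 at 1054.2 mg/kg and 1.24 to 1.89 in vehicle rats. Its highest values were 3.25, in replicate 2 of 132 mg/kg, and 2.47, in replicate 2 of 263.6 mg/kg. The hepatocyte markers, among them Alb, averaged 14.11 to 14.12 log2 per rat at 1054.2 mg/kg and 14.16 to 14.23 in vehicle rats. These ranges did not overlap, and the treated rats were lower. In limma 0 of these 11 markers passed, and 0 had an unadjusted p under 0.05.

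Across the doses, 1 of the 7 genes fell and 1 rose. Cyp2c11 was 1.78-fold lower at 1054.2 mg/kg than in vehicle rats, and Cyp2c6v1 was 1.28-fold higher. The other 5 genes passed the test at no dose. In liver pieces, fewer cells of a type and less RNA per cell cannot be told apart. A call is an adjusted p under 0.05 in limma, with the Benjamini-Hochberg adjustment over all 31042 probe sets. At 1054.2 mg/kg 2 of 7 members were called, against 3.3% of all probe sets (1.86% higher and 1.44% lower), and the median change was -0.06 over the members and -0.01 over all probe sets. At 66, 132, 263.6 and 527.1 mg/kg limma called 0 members, against 0.00644%, 0.0677%, 0.428% and 1.68% of all probe sets. At an unadjusted p under 0.05 there were 1, 5, 3 and 3 of 7 members at those doses, beside 3.24%, 14.9%, 11.9% and 13.6% of all probe sets. The count at 132 mg/kg was lower in 2 fits that took account of RNA quality, 1 of which held fewer rats. Whether RNA quality was the reason was not tested. Cyp2c7, Cyp2c11 and Cyp2c23 no longer met this limit there with the 3' minus 5' difference as a covariate. The same held without replicate 2 of 132 and 263.6 mg/kg, and Cyp2c6v1 and Cyp2c22 met it in both fits. At 263.6 mg/kg Cyp2c11 missed it in the covariate fit and Cyp2c7 in the other.

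**Figure D1:**
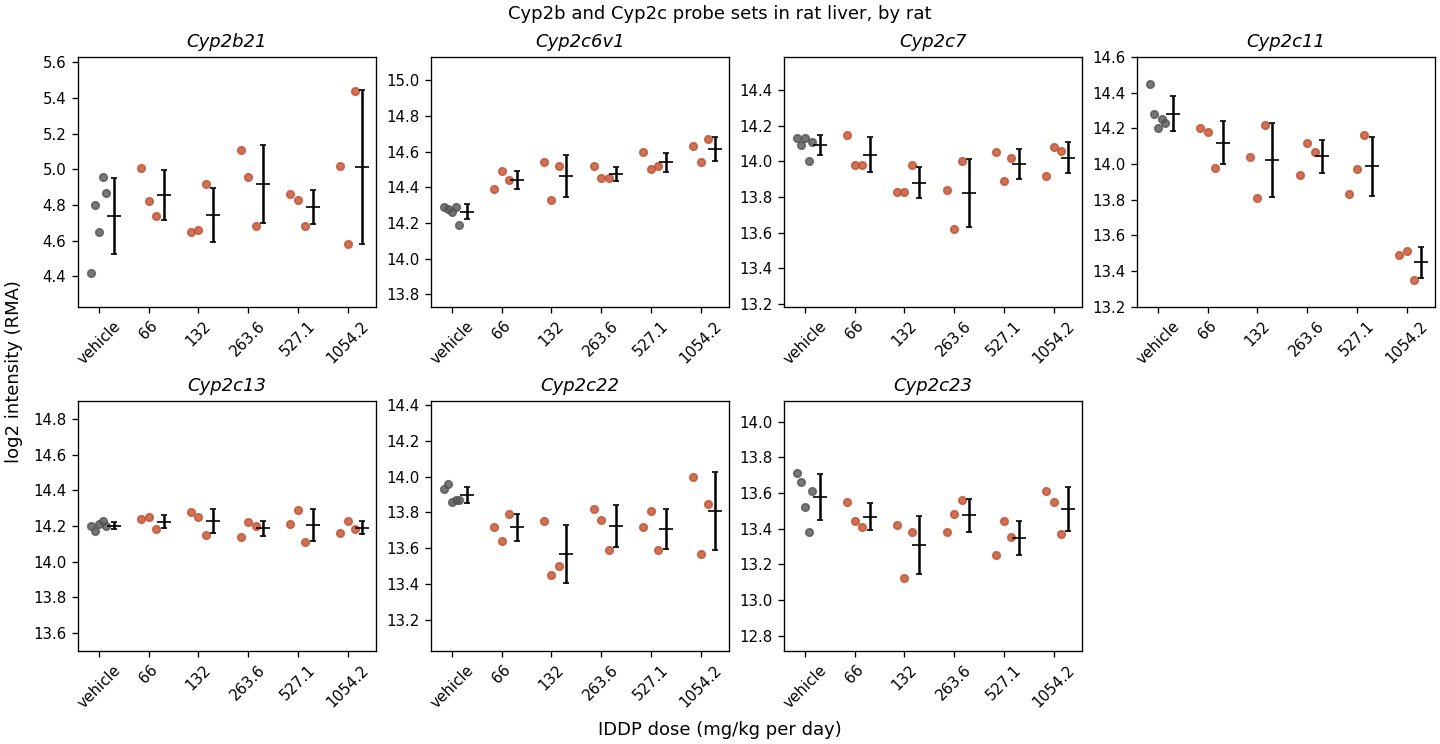
Log2 intensity (vertical axis) of the 7 probe sets in each rat, by IDDP dose (horizontal axis); points are rats, vehicle in grey and IDDP in orange, and bars are the mean ± SD (n = 5 vehicle, n = 3 per dose), with panels drawn over equal log2 ranges. Cyp2c11 lies between 13.35 and 13.51 at 1054.2 mg/kg, below every other rat, and Cyp2c6v1 lies higher in all 15 IDDP rats than in the 5 vehicle rats.

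Cyp2c11, the major male-specific P450 of rat liver and a hydroxylase of testosterone, was read from probe set 1387328_at. Its levels were 13.49, 13.51 and 13.35 log2 at 1054.2 mg/kg, against 14.45, 14.20, 14.23, 14.28 and 14.25 in vehicle rats. The groups did not overlap, and the highest of the 3 treated rats lay well under the lowest vehicle rat. The mean was 13.45 ± 0.08 (SD, n = 3) at 1054.2 mg/kg and 14.28 ± 0.10 (SD, n = 5) in vehicle rats, a change of -0.83 ± 0.10 (SE), with a 95% interval from -1.04 to -0.62 and an adjusted p of 6.25e-05 in limma. The exact permutation test over the 56 splits of the 8 rats gave p = 0.0179 (two-sided), the smallest it can give. Treated rats thus had 56.2% of the vehicle level (95% interval 48.6% to 65%).

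The lower doses of Cyp2c11 stood between. Levels were 14.20, 14.18 and 13.98 at 66 mg/kg, 14.04, 13.81 and 14.22 at 132 mg/kg, 13.94, 14.12 and 14.07 at 263.6 mg/kg, and 13.83, 13.97 and 14.16 at 527.1 mg/kg. Of the 15 IDDP rats 13 lay below all vehicle rats and 0 lay above them. The changes were -0.16, -0.26, -0.24 and -0.30 from 66 to 527.1 mg/kg, each ± 0.10 (SE), with adjusted p between 0.159 and 1. The lowest rat at 132 mg/kg, replicate 2 (13.81), had the highest 3' minus 5' difference. With that difference as a covariate the changes were -0.16 ± 0.11 at 132 mg/kg and -0.20 ± 0.10 at 263.6 mg/kg. Without replicate 2 of both doses they were -0.15 ± 0.11 and -0.27 ± 0.11. In both fits the estimate at 132 mg/kg was closer to vehicle than that at 263.6 mg/kg, but these 2 doses were not compared in them. In limma over all rats without the covariate, 263.6 against 132 mg/kg gave 0.02 ± 0.11 (adjusted p = 0.959).

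In the order of its levels, vehicle was highest, then 66, 263.6, 132 and 527.1 mg/kg, and 1054.2 mg/kg was lowest. No neighbours in that order differed past the threshold. Between 1054.2 and 527.1 mg/kg the change was -0.53 ± 0.11 (adjusted p = 0.171), in a contrast that called 0.0129% of all probe sets. The change of the highest dose was -0.67 ± 0.11 against 66 mg/kg (adjusted p = 0.00604), -0.58 ± 0.11 against 132 mg/kg (0.0226) and -0.59 ± 0.11 against 263.6 mg/kg (0.0275). Cyp2c11 was the only member called in these 3 contrasts, which called 0.496%, 0.438% and 0.18% of all probe sets. Leaving out replicate 3 of the highest dose ended all 3 of these calls. The call against 132 mg/kg was also lost without 132 mg/kg replicates 1 or 3, and the call against 263.6 mg/kg without any 1 of the 263.6 mg/kg rats or without 1054.2 mg/kg replicate 2.

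A slope on the rank of the dose, from vehicle to 1054.2 mg/kg, was fitted over all 20 rats. It was called for 2 of 7 members, against 5.05% of all probe sets. For Cyp2c11 it was -0.13 ± 0.02 log2 per step of dose (adjusted p = 6.64e-04). Without the 1054.2 mg/kg group the slope was -0.07 ± 0.02 and did not pass (adjusted p = 0.0893).

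**Figure D2:**
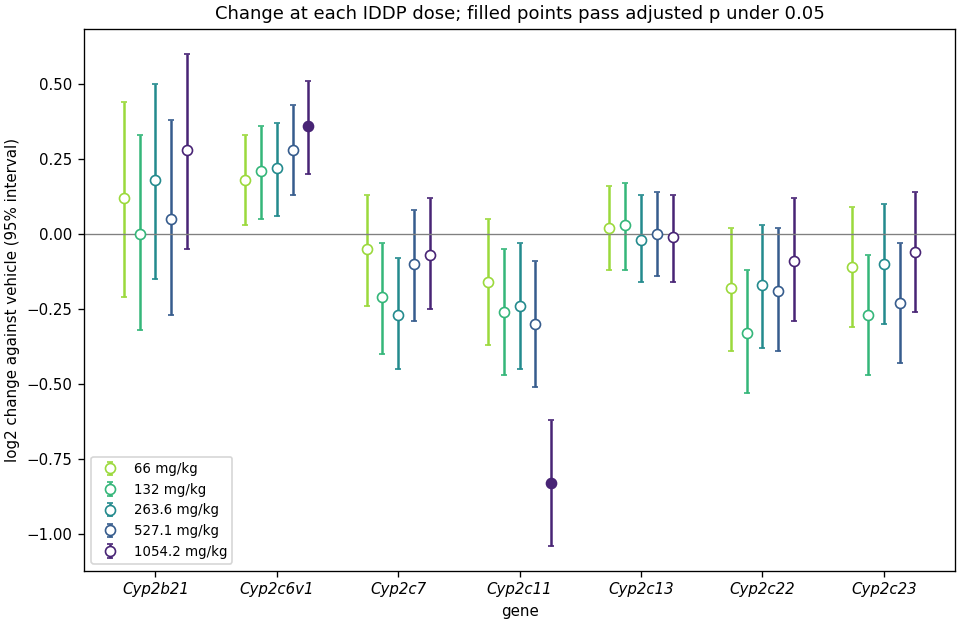
Log2 change against vehicle (vertical axis) with its 95% interval for each member (horizontal axis), the 5 doses running from 66 mg/kg at the left to 1054.2 mg/kg at the right of each gene; filled points pass an adjusted p under 0.05. The filled points are Cyp2c11 (-0.83) and Cyp2c6v1 (0.36), both at 1054.2 mg/kg.

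The start regions of 3 members are shown because they include both male-specific genes, which differed in outcome, and the female-predominant Cyp2c7. They are RefSeq sequences of assembly GRCr8, given 5′ to 3′ along the gene from 250 bases before to 50 after the annotated start. Regions for 6 of the 7 members matched by gene identifier. Capitals mark AGGTCA, the half-site of many nuclear receptors, and TATAAA, the TATA box, each on either strand; TTCNNNGAA, the motif of STAT factors, was also searched. The shares of all 33469 RefSeq regions of this length holding them were 16.2% for AGGTCA, 14.2% for TATAAA and 8.87% for TTCNNNGAA.
Cyp2c11 (chr1:246174966-246175265, + strand): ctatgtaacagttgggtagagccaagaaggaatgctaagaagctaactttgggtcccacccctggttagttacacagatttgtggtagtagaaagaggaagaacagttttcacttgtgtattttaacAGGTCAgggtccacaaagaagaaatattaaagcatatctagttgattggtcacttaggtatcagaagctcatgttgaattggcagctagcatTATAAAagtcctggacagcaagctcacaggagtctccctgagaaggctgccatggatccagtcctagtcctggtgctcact
Cyp2c13 (chr1:248787139-248787438, - strand): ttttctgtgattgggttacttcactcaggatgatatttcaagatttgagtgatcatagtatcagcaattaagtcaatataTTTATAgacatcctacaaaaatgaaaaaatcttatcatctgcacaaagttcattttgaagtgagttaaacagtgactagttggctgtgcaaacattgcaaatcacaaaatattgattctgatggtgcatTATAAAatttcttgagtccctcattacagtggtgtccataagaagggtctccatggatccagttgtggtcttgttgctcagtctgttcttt
Cyp2c7 (chr1:247966144-247966443, + strand): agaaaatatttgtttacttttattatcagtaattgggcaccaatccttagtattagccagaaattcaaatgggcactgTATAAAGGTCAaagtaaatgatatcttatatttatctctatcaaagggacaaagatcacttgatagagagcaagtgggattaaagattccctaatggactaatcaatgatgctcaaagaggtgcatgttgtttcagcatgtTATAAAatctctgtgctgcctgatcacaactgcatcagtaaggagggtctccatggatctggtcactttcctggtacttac

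The Cyp2c11 region held AGGTCA 123 bases and TATAAA 31 bases before the start. The Cyp2c7 region also held TATAAA 31 bases before the start, and a second TATAAA there overlaps its AGGTCA by 1 base. The Cyp2c13 region held TATAAA 41 bases before the start, its reverse complement farther upstream, and no AGGTCA. TTCNNNGAA was in none of the 6 regions. AGGTCA was also in the regions of Cyp2b21, on the gene's strand, and Cyp2c22, as its reverse complement, neither of which passed the test. A match is a run of letters and not a measured binding site.

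Cyp2c6v1, a P450 expressed in both sexes and inducible by phenobarbital, was read from probe set 1370580_a_at. Its levels were 14.63, 14.54 and 14.67 log2 at 1054.2 mg/kg, against 14.29, 14.26, 14.19, 14.28 and 14.29 in vehicle rats. The mean was 14.62 ± 0.06 (SD, n = 3) at 1054.2 mg/kg and 14.26 ± 0.04 (SD, n = 5) in vehicle rats. The change was 0.36 ± 0.07 (SE; 95% interval 0.20 to 0.51; adjusted p = 0.00835 in limma; exact permutation p = 0.0179). Without replicate 3 of that dose it did not pass (0.33 ± 0.09, adjusted p = 0.0652).

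Cyp2c6v1 was higher in all 15 IDDP rats (14.33 to 14.67) than in any vehicle rat (14.19 to 14.29). Of all probe sets, 0.267% had every IDDP rat above every vehicle rat, and among the members only Cyp2c6v1 did. The reverse, every IDDP rat below every vehicle rat, held for 0.0805% of all probe sets and for 0 members. The mean was 14.44 ± 0.05 at 66 mg/kg, 14.46 ± 0.11 at 132 mg/kg, 14.47 ± 0.04 at 263.6 mg/kg and 14.54 ± 0.06 at 527.1 mg/kg (SD over 3 rats). The order of these means followed the dose. The changes at these doses were 0.18, 0.21, 0.22 and 0.28, each ± 0.07 (SE), and none passed, with adjusted p of 1, 0.214, 0.21 and 0.0536. The last was close to the threshold, and it passed when array medians were centred (0.0297) or dim probe sets were left out (0.032). The order of 132 and 263.6 mg/kg turned round in the fits for RNA quality. With the 3' minus 5' difference as a covariate the changes were 0.26 ± 0.08 at 132 mg/kg and 0.24 ± 0.07 at 263.6 mg/kg. Without replicate 2 of both doses they were 0.27 ± 0.08 and 0.23 ± 0.08. Between doses Cyp2c6v1 passed in 0 of 10 contrasts. The 6 contrasts among the 4 lower doses called 0 members, and 0, 0.00966%, 0.0354% or 0.0966% of all probe sets. At an unadjusted p under 0.05 limma gave 1 member there, Cyp2c7 between 263.6 and 66 mg/kg (-0.21 ± 0.10), a contrast with 5.83% of all probe sets under that p. The slope on dose rank was 0.06 ± 0.01 log2 per step (adjusted p = 0.00226).

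Cyp2c13, the other male-specific hydroxylase, moved least. Its levels were 14.16, 14.23 and 14.18 at 1054.2 mg/kg, against 14.20, 14.21, 14.20, 14.17 and 14.23 in vehicle rats, and the groups overlapped. The change was -0.01 ± 0.07 (SE; adjusted p = 0.967), with a 95% interval from -0.16 to 0.13, or 89.8% to 110% of the vehicle level. All 15 IDDP rats lay between 14.11 and 14.29. The suffix of its probe set, 1370495_s_at, marks in the array maker's naming probes that match transcripts of more than 1 gene, and how much of the signal comes from relatives was not tested.

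Cyp2c7, a female-predominant retinoic acid hydroxylase of rat liver, had 13.92, 14.08 and 14.06 at 1054.2 mg/kg, against 14.13, 14.13, 14.11, 14.09 and 14.00 in vehicle rats. The groups overlapped, and the change was -0.07 ± 0.09 (95% interval -0.25 to 0.12; adjusted p = 0.801). Its lowest means were at middle doses, 13.88 ± 0.09 at 132 mg/kg and 13.82 ± 0.19 at 263.6 mg/kg (SD over 3 rats). The changes there were -0.21 ± 0.09 and -0.27 ± 0.09 and did not pass (adjusted p = 0.272 and 0.198). The lowest rat, 263.6 mg/kg replicate 2 (13.62), was the one with the second highest 3' minus 5' difference. Without it and 132 mg/kg replicate 2 the change at 263.6 mg/kg was -0.17 ± 0.09 (adjusted p = 0.444).

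Cyp2c22, which hydroxylates retinoic acid in rat liver, had 14.00, 13.57 and 13.85 at 1054.2 mg/kg, against 13.93, 13.86, 13.87, 13.96 and 13.87 in vehicle rats. The treated rats spread on both sides of the vehicle range, and the change was -0.09 ± 0.10 (95% interval -0.29 to 0.12; adjusted p = 0.758). In all, 14 of 15 IDDP rats lay below every vehicle rat, the exception being 1054.2 mg/kg replicate 1. The lowest mean was 13.57 ± 0.16 (SD, n = 3) at 132 mg/kg, a change of -0.33 ± 0.10 that did not pass (adjusted p = 0.167).

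Cyp2c23, an arachidonic acid epoxygenase known best from rat kidney, had 13.61, 13.55 and 13.37 at 1054.2 mg/kg, against 13.71, 13.52, 13.61, 13.66 and 13.38 in vehicle rats. The groups overlapped (change -0.06 ± 0.10, 95% interval -0.26 to 0.14, adjusted p = 0.832). Its lowest mean was also at 132 mg/kg, 13.31 ± 0.16 (SD, n = 3), with a change of -0.27 ± 0.10 that did not pass (adjusted p = 0.214). The lowest rat of all 20 for Cyp2c22 (13.45) and for Cyp2c23 (13.12) was 132 mg/kg replicate 2, whose 3' minus 5' difference was the highest. With that difference as a covariate, the changes at 132 mg/kg were -0.31 ± 0.11 for Cyp2c22 and -0.21 ± 0.11 for Cyp2c23. Without this rat and 263.6 mg/kg replicate 2 they were -0.27 ± 0.11 for Cyp2c22 and -0.18 ± 0.10 for Cyp2c23, and none of these passed (adjusted p 0.627 to 0.83).

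Cyp2b21 was the 1 dim member, at the 21.2 percentile of brightness over all probe sets. Its levels were 5.02, 4.58 and 5.44 at 1054.2 mg/kg, against 4.42, 4.65, 4.87, 4.80 and 4.96 in vehicle rats, and the groups overlapped. The change was 0.28 ± 0.15 (SE; 95% interval -0.05 to 0.60; adjusted p = 0.438). Leaving out 1 rat gave changes from 0.06, without 1054.2 mg/kg replicate 3, to 0.49, and none passed.

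The 6 Cyp2c members were among the brightest probe sets of the array, at the 99.4 to 99.9 percentile, where the highest value in the table was 15.35. For comparison, chosen after the values were seen, 184 probe sets were at least as bright as Cyp2c23, the dimmest Cyp2c member. Of these, 10.3% were called at 1054.2 mg/kg, 9 higher and 10 lower, with changes from -0.83 to 1.56. The fall of Cyp2c11 was the largest among them, and 10 had larger rises than Cyp2c6v1. The median SD between rats within groups was 0.08 log2 in this set and 0.16 over all probe sets. Whether brightness near the top of the scale limits the measured changes was not tested.

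Groups that do not overlap were also counted for each dose. At 66 mg/kg Cyp2c6v1 and Cyp2c22 did not overlap the vehicle rats, 2 of 7 members against 4.59% of all probe sets. At 132 mg/kg these and Cyp2c7 did not (3 of 7, against 8.17%). At 263.6 and at 527.1 mg/kg Cyp2c6v1, Cyp2c11 and Cyp2c22 did not (3 of 7 each, against 9% and 11.9%). At 1054.2 mg/kg Cyp2c6v1 and Cyp2c11 did not (2 of 7, against 12.4%).

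All 7 genes lie on chromosome 1 in GRCr8, and the 6 Cyp2c genes come in the order Cyp2c11, Cyp2c6v1, Cyp2c7, Cyp2c13, Cyp2c22 and Cyp2c23. Between Cyp2c6v1 and Cyp2c7 the annotation places 0 protein-coding genes, and likewise between Cyp2c13 and Cyp2c22. Between Cyp2c11 and Cyp2c6v1 there are 13, and between Cyp2c22 and Cyp2c23 there are 51. The gene called higher, Cyp2c6v1, was thus next to Cyp2c7, whose change was -0.07 ± 0.09 at 1054.2 mg/kg, and the gene called lower, Cyp2c11, stood first in this order.

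Cyp2b1 and Cyp2b2, the classic CAR-induced genes of rat liver, share 1 probe set, 1371076_at, which the annotation gives to both, so it belongs to neither alone and fell outside the rule above. Its levels were 13.92, 13.71 and 14.36 log2 at 1054.2 mg/kg, against 11.84, 10.73, 9.94, 11.70 and 11.36 in vehicle rats. The mean was 14.00 ± 0.33 (SD, n = 3) at 1054.2 mg/kg and 11.11 ± 0.78 (SD, n = 5) in vehicle rats, or 7.38-fold higher (log2 change 2.88 ± 0.32 SE, adjusted p = 2.57e-05 in limma). All 15 IDDP rats (12.49 to 14.36) lay above every vehicle rat (9.94 to 11.84), and the vehicle rats differed among themselves more than at any dose. The change was 1.62 ± 0.32 at 66 mg/kg, which did not pass (adjusted p = 0.276). It was 2.05 at 132 mg/kg (adjusted p = 0.0115), 2.16 at 263.6 mg/kg (0.00257) and 2.37 at 527.1 mg/kg (5.50e-04), each ± 0.32. The call at 132 mg/kg was lost without 132 mg/kg replicate 1 (0.0671), in a fit of only these 2 groups (0.107) and with a variance trend and robust prior (0.0545).

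**Figure D3:**
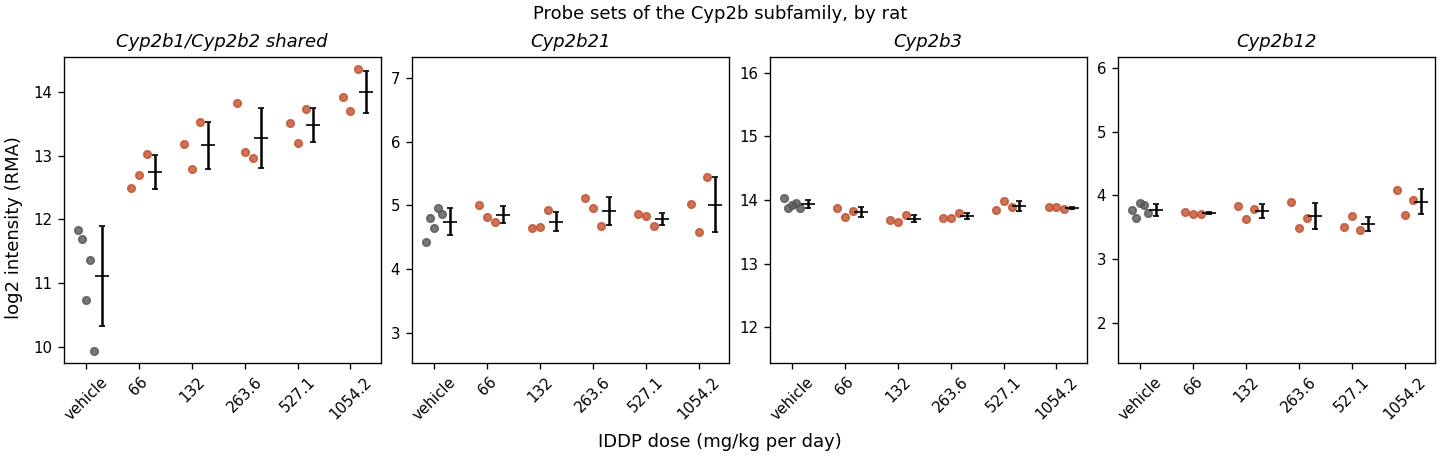
Log2 intensity (vertical axis) by IDDP dose (horizontal axis) of the probe set shared by Cyp2b1 and Cyp2b2 and of Cyp2b21, Cyp2b3 and Cyp2b12, with 1 point per rat and the mean ± SD, in panels of equal log2 range. The shared probe set is higher in all 15 IDDP rats than in the vehicle rats, while the other 3 overlap the vehicle range at 1054.2 mg/kg.

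Of 18 measured of the 29 listed, Cyp2j4, of a subfamily that epoxidises arachidonic acid, rose (0.70 ± 0.12, adjusted p = 0.00247), Cyp2t1 fell (-0.46 ± 0.12, adjusted p = 0.0371) and 16 did not pass at 1054.2 mg/kg, with a list median of 0.01. The call of Cyp2t1 was lost when array medians were centred (0.0566) and when vehicle replicate 1, 4 or 5 or the highest dose's replicate 2 or 3 was left out (0.0702 to 0.232). Among close relatives, Cyp2b3 had a change of -0.05 and the dim Cyp2b12 one of 0.13, and neither passed. At 66, 132 and 263.6 mg/kg all 3 rats lay below every vehicle rat in Cyp2b3, with changes of -0.12, -0.23 and -0.19 that did not pass (adjusted p 0.181 to 1). Cyp2c12, the female-specific relative, had 10.86, 11.69 and 11.77 at 1054.2 mg/kg, against 10.44, 11.48, 12.42, 11.84 and 10.67 in vehicle rats. The groups overlapped, with a change of 0.07 and a 95% interval from 60.9% to 180% of the vehicle level.

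The genes most like the 2 called members were sought by Pearson's r of the log2 values over the 20 arrays. The arrays share the dose steps, so r reflects dose as well as differences between rats, and it is a description. For Cyp2c6v1 they were Gsta3, a glutathione transferase (r = 0.94), Cryl1 (0.93) and Abcc3, an efflux pump of organic anions (0.93). For Cyp2c11 they were Elovl5, an elongase of polyunsaturated fatty acids (0.93), Crym, a binding protein of thyroid hormone (0.91), and Apoc3, an inhibitor of lipoprotein lipase (0.90). At 1054.2 mg/kg the changes were 2.96 ± 0.17 for Gsta3, 1.80 ± 0.15 for Cryl1 and 3.42 ± 0.28 for Abcc3. They were -0.71 ± 0.11 for Elovl5, -0.92 ± 0.12 for Crym and -0.21 ± 0.07 for Apoc3 (SE), all past the threshold but that of Apoc3 (adjusted p = 0.0849).

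Genes around the P450s were counted in lists, each gene by its brightest probe set (the probe set of largest interquartile range changed the counts of 6 lists, 1 of them of markers), beside a median change of -0.01 over all probe sets at 1054.2 mg/kg. Lists share genes, so a rise can count in more than 1 list. Cyp3a18, Aldh1a1 and Ephx1, named in other lists below, are also in the list of CAR and PXR targets. Of 18 measured CAR and PXR targets outside CYP2, 12 rose, 0 fell and 6 did not pass (list median 1.12). The largest rises were in Ces2c (3.60 ± 0.17), Abcc3, Gsta3 and Akr7a3 (1.91 ± 0.23). The number that rose was 1, 6, 8 and 11 at 66, 132, 263.6 and 527.1 mg/kg. Of 13 P450 redox partners and haem enzymes 2 rose and 11 did not pass (median 0.11). These were Hmox1, which degrades haem (1.30 ± 0.23, adjusted p = 0.00302), and Alas1, the first enzyme of haem synthesis (1.07 ± 0.21, adjusted p = 0.00607). Leaving out replicate 3 of that dose ended the Alas1 call (0.0721). Por, the reductase itself, had a change of 0.77 that did not pass (adjusted p = 0.128). Of 15 receptors and factors Foxa2 rose (1.02 ± 0.22, adjusted p = 0.0121) and 14 did not pass, the CAR gene Nr1i3 among them (0.39, adjusted p = 0.584). The PXR gene Nr1i2 did not pass either (-0.20, adjusted p = 0.35), and its 3 rats at 1054.2 mg/kg lay below every vehicle rat. Groups did not overlap in 12.4% of all probe sets at this dose. Leaving out replicate 2 or replicate 3 of that dose ended the Foxa2 call (0.111 and 0.0864).

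Among genes tied to growth hormone and sex, some rose and others fell at the highest dose. Of 13 growth hormone pathway genes, the corepressor gene Trim24 (1.58 ± 0.24, adjusted p = 6.66e-04) and Cux2, a female-predominant repressor (0.90 ± 0.20, adjusted p = 0.017), rose, Igf1 fell (-0.30 ± 0.08, adjusted p = 0.0466) and 10 did not pass. The Igf1 call was lost in 15 of the 20 fits that left out 1 rat (highest adjusted p 0.268), with centred medians (0.0803) and in a 2-group fit (0.083), and that of Cux2 when the highest dose's replicate 1 was left out (0.53, adjusted p = 0.0849). Stat5b, which carries the growth hormone signal, had a change of -0.17 that did not pass (adjusted p = 0.328). Larger changes that did not pass were those of Socs2 (-0.98 ± 0.36, adjusted p = 0.174), Igfbp3 (-0.88 ± 0.32, 0.156) and Cish (1.18 ± 0.42, 0.153). In limma 8 of the 13 genes had an unadjusted p under 0.05, beside 15.1% of all probe sets. Of 10 male-predominant genes outside the members, Akr1b7 (2.23 ± 0.24) and Cyp3a18 (1.06 ± 0.14) rose, Stac3 (-2.87 ± 0.52) and Dhrs7l1 (-2.12 ± 0.29) fell and 6 did not pass. Of 9 female-predominant genes Cux2 and Sult2a2 (0.76 ± 0.19) rose, Hao2 fell (11.94 log2 at 1054.2 mg/kg and 12.94 in vehicle rats, adjusted p = 0.00497) and 6 did not pass. The Sult2a2 change was 0.42 without replicate 2 of the highest dose (0.195), and its call was also lost without replicate 3 of that dose or vehicle replicate 3 or 4, and in a 2-group fit (0.0973). The Hao2 call was lost without replicate 3 of the highest dose (0.0596).

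Of 13 eicosanoid enzymes the epoxide hydrolase gene Ephx1 (0.88 ± 0.16) and Cyp2j4 rose, Cyp4f6 fell (-0.45 ± 0.09) and 10 did not pass at 1054.2 mg/kg. The Cyp4f6 call was lost without replicate 2 of that dose (0.0834). Of 12 pericentral hepatocyte genes 4 fell, 1 rose and 7 did not pass. Oat (-1.46 ± 0.28), Gulo (-0.81 ± 0.11) and Cyp1a2 (-0.66 ± 0.11) were among those that fell, and Aldh1a1 rose (1.36 ± 0.10).

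**Figure D4:**
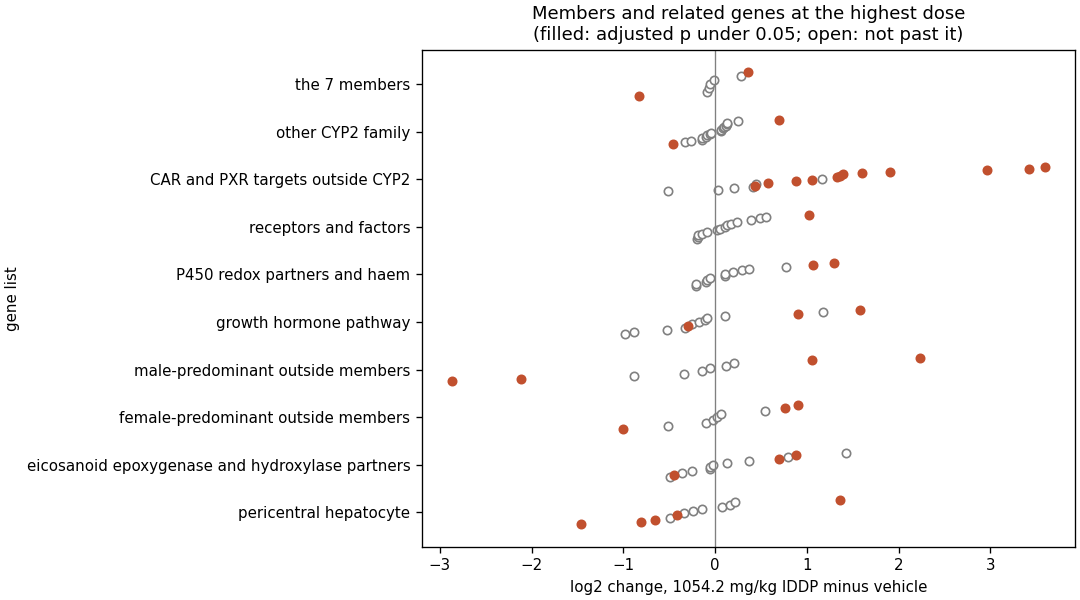
Log2 change at 1054.2 mg/kg minus vehicle (horizontal axis) for the members and for each list of related genes (vertical axis), 1 point per measured gene, filled where the adjusted p is under 0.05. The CAR and PXR targets hold 12 filled points, all higher, while the members hold 1 lower and 1 higher.

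Markers of other liver cells were lower at several doses. At 1054.2 mg/kg 6 of 10 markers of Kupffer cells and macrophages fell, as did 2 of 9 of endothelial cells and 5 of 11 of stellate cells and fibroblasts, and 0 markers of these lists rose. The means of the Kupffer cell list were 9.21 to 9.37 log2 per rat at 1054.2 mg/kg and 9.58 to 10.10 in vehicle rats. Those of the endothelial list were 8.79 to 9.07 at 1054.2 mg/kg and 9.11 to 9.42 in vehicle rats, and those of the stellate cell list 7.58 to 7.69 at 1054.2 mg/kg and 7.78 to 8.12 in vehicle rats. None of the 3 lists overlapped between these groups. The hepatocyte means given above did not overlap either and were also lower. The same held for the pericentral list, at 10.34 to 10.39 at 1054.2 mg/kg and 10.52 to 10.65 in vehicle rats. Also below all vehicle rats were the hepatocyte means at 132 mg/kg (14.03 to 14.14) and at 263.6 mg/kg (14.06 to 14.14). So were the pericentral means at 263.6 mg/kg (10.38 to 10.41). In the Kupffer cell and stellate cell lists 1 lower dose each gave a median change as large. For Kupffer cells the median change was -0.58 at 132 mg/kg and -0.54 at 1054.2 mg/kg, and the means per rat at 132 mg/kg (9.24 to 9.48) were also below all vehicle rats. For stellate cells it was -0.49 at 263.6 mg/kg and -0.39 at 1054.2 mg/kg, with means at 263.6 mg/kg (7.41 to 7.74) below all vehicle rats. At 527.1 mg/kg it was -0.33 in each of the 2 lists. The 132 and 263.6 mg/kg groups hold the arrays of highest 3' minus 5' difference, and no RNA quality refit of these lists is given. In limma 0 markers of these 2 lists passed at the lower doses, while at an unadjusted p under 0.05 there were 8 of 10 Kupffer cell markers at 132 mg/kg and 8 of 11 stellate cell markers at 263.6 mg/kg. In the endothelial list the median change was -0.33, -0.25, -0.38 and -0.31 from 66 to 527.1 mg/kg and -0.44 at 1054.2 mg/kg. Its means per rat at 263.6 mg/kg (8.91 to 9.01) and 527.1 mg/kg (8.92 to 9.05) lay below all vehicle rats. Limma called 1 of 9 endothelial markers at 527.1 mg/kg and 0 at 66, 132 and 263.6 mg/kg. At an unadjusted p under 0.05 there were 7, 3, 5 and 4 of 9 from 66 to 527.1 mg/kg, and 7 at 1054.2 mg/kg. Of the other marker lists, 1 of 5 cholangiocyte markers rose and 1 of 8 pancreas markers fell, and limma called 0 of 8 lymphocyte, 0 of 4 neutrophil and 0 of 3 erythroid markers (0, 0 and 2 at an unadjusted p under 0.05). The part of cell makeup in the changes of Cyp2c11 and Cyp2c6v1 was not tested.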

How the data were processed

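Livers of 20 rats were each measured on 1 Affymetrix array. The values deposited by the authors are log2 intensities of probe sets made with RMA, per the submitters' processing notes, with no version given. From 31099 probe sets, 57 array controls were left out of the tests. The array annotation gave 1 gene symbol to 20826 of the 31042 tested, several to 436 and none here to 9780. Through Entrez identifiers 20758 matched RefSeq (GRCr8), which updated 0 symbols. Groups came from the sample titles.

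In limma 3.58.1 (R 4.3.3) a mean for each dose group was estimated from the 20 arrays together, without a brightness filter (residual degrees of freedom 14, prior 5.75). Tests were two-sided, with Benjamini-Hochberg adjustment per contrast and a threshold of 0.05. All 15 contrasts between the 6 groups and a slope on dose rank were taken. Single values were also tested by exact permutation of the absolute difference of means (scipy 1.17.1). In simulated data for 1054.2 mg/kg against vehicle over 31042 probe sets, 46 of 50 rises of 1 log2 and 24 of 50 of 0.5 log2 were recovered, with 10 false calls. Nothing says more of the replicates than that each is a rat, and the number of arrays limits the precision.

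The members and the gene lists were chosen with earlier results of these data known. All 7 members are named. Up to 4 genes per list were named, those of largest change at the highest dose that passed the threshold. Genes most like a member were the 3 with the highest Pearson's r, named for called members. Cyp2b3, Cyp2b12, Cyp2c12, Por, Nr1i3, Nr1i2, Stat5b, Socs2, Igfbp3, Cish and the probe set shared by Cyp2b1 and Cyp2b2 were chosen after their values were seen. Alternatives were a filter on dim probe sets, centred medians, quantile normalization again, 1 probe set per gene, another variance prior, 2-group fits, a replicate block, RNA quality as a covariate or by leaving out arrays, other dose scales and leaving out each rat.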

Additional observations from a re-analysis of the deposited data

How the results depend on the processing

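The calls of Cyp2c11 at 1054.2 mg/kg and of both slopes held in every fit that left out 1 rat. Leaving out 1 rat gave 1 to 2 members called at 1054.2 mg/kg, the 1 without 1054.2 mg/kg replicate 3; 2 on the slope; 0 to 1 at 527.1 mg/kg; and 0 to 1 for 1054.2 against 66, 132 or 263.6 mg/kg. At 527.1 mg/kg 1 member, Cyp2c6v1, passed with dim probe sets left out, centred medians, quantile normalization again, 1 probe set per gene, a variance trend and robust prior, the 3' minus 5' difference as a covariate, or both arrays of high difference left out. Without the 1054.2 mg/kg group the slope called 1. Near 0, some uncalled changes turned sign. At 1054.2 mg/kg Cyp2c13 was 0.0035 with centred medians, and leaving out 1 rat gave -0.03 to 0.0026 for Cyp2c13, -0.18 to 0.03 for Cyp2c22 and -0.12 to 0.01 for Cyp2c23. At 527.1 mg/kg Cyp2c13 was -0.02 with quantile normalization, -0.0005 with the replicate block and -0.0014 with the covariate, and leaving out 1 rat gave -0.04 to 0.05 for it and -0.03 to 0.11 for Cyp2b21. The slope of Cyp2c22 on mg/kg was 2.60e-07. The causes were not tested.

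Deviations of same-numbered rats from their group means correlated with r from -0.352 to 0.472 (over 0.1 in 15 of 45 pairs, median 0.0668). The sample titles do not say that replicate numbers mark pairs, and they were not taken as such. With the replicate block the count of members called at each dose and on the slope did not move, while all probe sets called were 78 against 133 at 263.6 mg/kg, 283 against 520 at 527.1, 614 against 1024 at 1054.2 and 930 against 1569 on the slope. With the block the calls at 1054.2 mg/kg of Cyp2t1 (adjusted p = 0.157 in limma), Igf1 (0.0942), Sult2a2 (0.0831), Foxa2 (0.0782) and Cux2 (0.0752) were lost. With the probe set of largest interquartile range per gene, the genes called at 1054.2 mg/kg were 3 of 13 for redox and haem (2 with the brightest), 2 of 13 for growth hormone with 0 lower (3), 5 of 10 male-predominant (4), 4 of 9 female-predominant (3), 6 of 12 pericentral (5) and 1 of 9 endothelial (2). All probe sets called at 132 mg/kg (21) were 46 without dim probe sets, 50 with quantile normalization, 12 with another variance prior, 11 without both arrays of high 3' minus 5' difference and 6 to 1482 without 1 rat, the 1482 without 132 mg/kg replicate 3. At 66 mg/kg (2) they were 11 in a 2-group fit and 0 to 3 without 1 rat. At 263.6 mg/kg they were 75 with centred medians, 221 with quantile normalization, 56 without both arrays and 38 to 260 without 1 rat. At 527.1 mg/kg they were 826 in a 2-group fit, 839 with the covariate and 212 to 646 without 1 rat, and at 1054.2 mg/kg 405 to 1219 without 1 rat. On the slope they were 879 against dose in mg/kg and 920 without the highest dose.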
